A study of Ovis aries with 36 samples.

Results

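Some genes of the sheep infraspinatus, one of the shoulder's rotator cuff muscles, were read in every biopsy of one animal and in none of another. Such genes were chosen here by their level: at least 1 animal had a deposited value of at most 1 in all 4 of its libraries ("off"), and at least 1 other animal had a value of at least 20 in all 4 ("on"). Of 25197 Ensembl gene identifiers 12 met this rule. The rule leaves out 41 of the identifiers, of which 0 met the limits. All 12 are described. An animal that was neither on nor off for a gene is called in between.

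The samples came from 9 female Swiss Alpine sheep of 2 years, 3 in each arm. All 9 had the infraspinatus tendon cut from the bone and sewn back 16 weeks later. For CONTROL animals (2901, 2902 and 2903) the design text names no drug. N22W animals (2913, 2914 and 2915) received 150 mg of nandrolone decanoate, a long-acting ester of an anabolic steroid, every week from release on. N6W animals (2907, 2908 and 2909) received the same weekly dose from repair on, so their PRE and TR biopsies came before any drug. From each animal 4 total RNA libraries were made. The operated muscle was sampled ahead of release (PRE), at repair (TR) and 6 weeks after that (END), and the contralateral muscle when the experiment ended (END-CC). The design text has 6 animals in every arm, and 3 of each were analysed here. No identifier could be paired with a gene name (0 of 25197), so the function of the 12 genes, markers of muscle and of other cell types, and sequences are not given.

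In outbred animals such as sheep, transcripts can be abundant in some individuals and missing in others. A difference that belongs to the animal would be seen in all of its biopsies, whereas a response to injury or to a steroid would appear between them. Repeated biopsies, as here, let levels be read between and within animals. In CONTROL and N22W the step from TR to END falls together with a difference between libraries, given below. In whole muscle, fewer cells of a type and less RNA per cell cannot be told apart.

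A value of 1 was close to a single read. The deposited value is a read number over the size factor of its library, and 1 read was worth more than 1 in 21 of the 36 libraries, so that off meant 0 reads there. In the other 15 it allowed 1 read. Libraries held 11879736 to 43065773 recovered reads and 15433 to 18571 genes with a value above 0. The 12 libraries taken from CONTROL and N22W at PRE and TR stood apart from the other 24: 477 genes lay over 8-fold higher in each of the 12 than in each of the 24 (value + 1), and 0 genes lay so the other way. None of the 12 genes described here was among the 477, which the rule itself made unlikely. It asks for 20 or more at END and END-CC in an on animal, and these libraries are among the 24. Their absence from the 477 therefore does not place the 12 genes outside this difference between libraries. For 6 of the 12 genes each of the 12 libraries that stood apart was at 20 or more, as given below. The other 6, where on in CONTROL and N22W, also lay higher at PRE and TR in 12 of 14 combinations of gene and animal. Of the 9947 genes at 20 or more in all 36 libraries, 9711 also lay higher at PRE and TR than at END and END-CC in CONTROL and N22W. In N6W 4885 did. The median difference over the 9947 genes was 0.49 (log2) in CONTROL and N22W, against −0.00423 in N6W. The 12 of 14 combinations are thus no result about these 6 genes.

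The 12 genes had 12 different patterns over the 9 animals. Of the 108 combinations of gene and animal, 32 were on, 23 were off and 53 were in between. Off combinations held 92 libraries, of which 85 had 0 reads of the gene and the other 7 had 1 read each. Of the 23 off combinations 17 lay in N6W animals, the arm with no library among the 12 that stood apart, and 6 in the other arms. These counts follow from the rule and are a description.

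**Figure D1:**
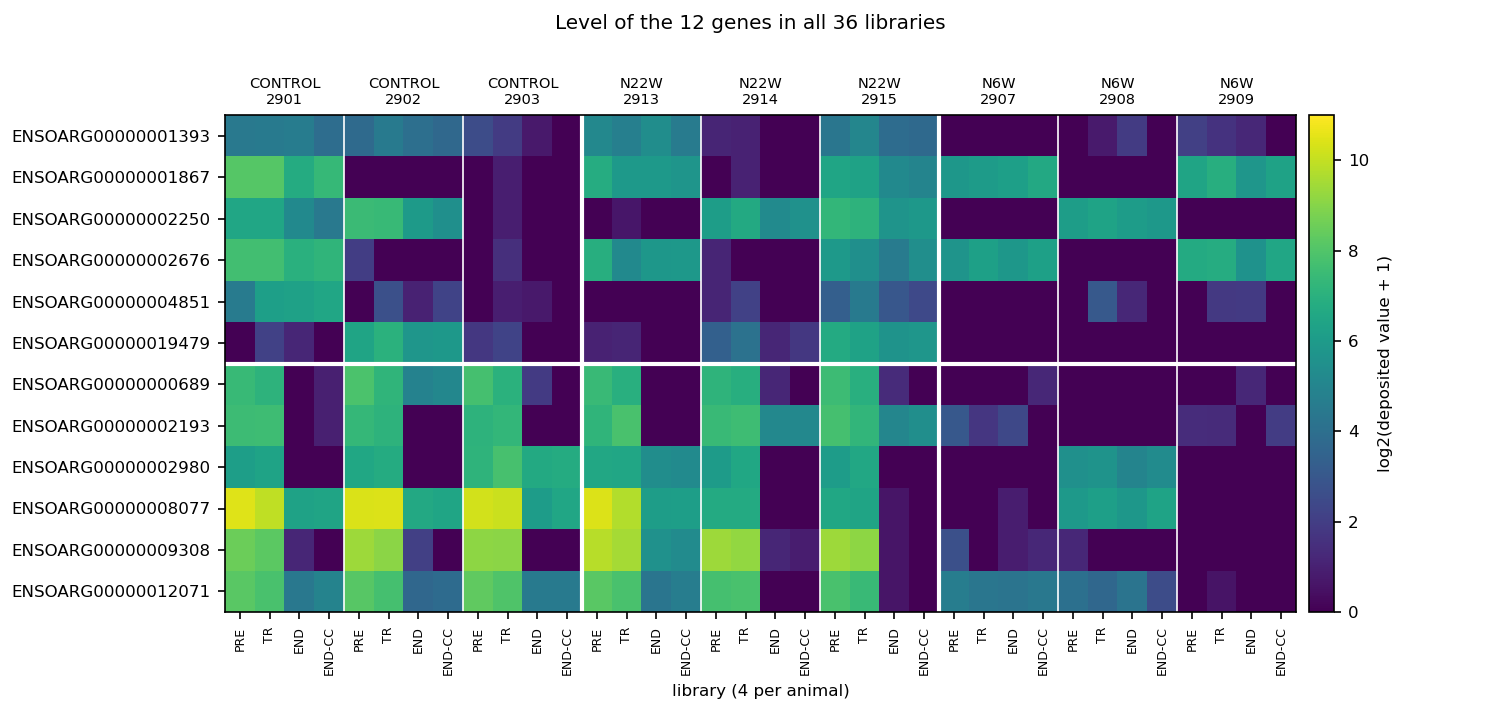
Level of the 12 genes in all 36 libraries, as log2 of the deposited value plus 1, with 4 libraries per animal and 3 animals per arm. The upper 6 genes are below 20 at PRE or TR in at least 1 CONTROL or N22W animal, and the lower 6 are high at PRE and TR in all CONTROL and N22W animals and differ between animals in the other 24 libraries.

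For 6 of the genes at least 1 CONTROL or N22W animal was below 20 at PRE or TR. ENSOARG00000002250 left no animal in between: 5 were on and 4 were off. Its values at PRE, TR, END and END-CC were 89.5, 91.1, 36.1 and 20.9 in 2901, and 181, 168, 62.9 and 43.0 in 2902. They were 68.1, 103, 37.1 and 45.9 in 2914, 156, 139, 51.3 and 56.8 in 2915, and 67.8, 82.9, 67.0 and 57.0 in 2908. In 2903, 2913, 2907 and 2909 together 2 reads of the gene were found among 365517899, at most 1 in any library. Each arm therefore held animals of both states.

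ENSOARG00000001867 was on in 5 animals and off in 3. Its values at PRE, TR, END and END-CC were 273, 277, 108 and 165.5 in 2901, against 111, 58.4, 58.3 and 52.6 in 2913. In 2915 they were 87.0, 80.3, 36.1 and 30.2. Animal 2901 thus lay above these other on animals at each time point. In N6W, where all 4 libraries belong to the 24, the values were 54.8, 64.5, 72.4 and 97.4 in 2907 and 85.6, 119, 54.3 and 78.8 in 2909. In 2902 and 2908 the gene had 0 reads in all 4 libraries, in 2903 it had 1 read in all, and 2914 was in between by 1 read at TR (a value of 1.10). Summed over 4 libraries, 2901 had 845 reads of the gene among 100632646, and 2902 had 0 of 103593242. With the limit that 0 reads allow set at 3 reads over the 4 libraries, the level in 2901 was at least 290-fold higher.

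ENSOARG00000002676 followed the same animals. It was on in 2901, 2913, 2915, 2907 and 2909, off in 2908, and in between in 2902, 2903 and 2914 by 3, 2 and 1 reads. Over the 24 libraries that did not stand apart the log2 values of this gene and of ENSOARG00000001867 had a Pearson correlation of 0.997, and over all 36 one of 0.987. In the 20 libraries where both were at 20 or more, the value of ENSOARG00000001867 was 0.708 to 1.82 times that of ENSOARG00000002676 (median 1.10). In the other 16 libraries together 2 reads of the former and 6 of the latter were found. The libraries of an animal are not independent, so these correlations rest on 9 animals and are given without a test. Whether reads of the pair can be told apart by sequence was not tested.

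**Figure D2:**
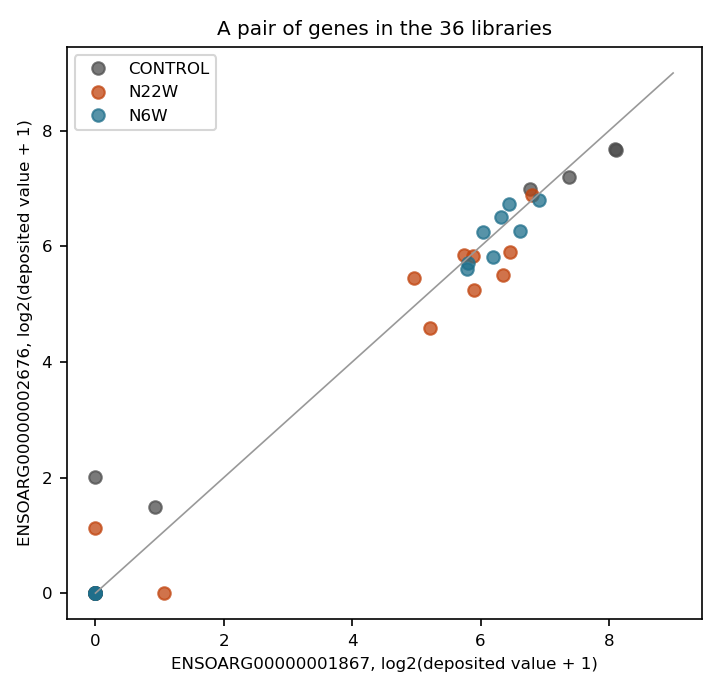
Values of ENSOARG00000001867 and ENSOARG00000002676 in the 36 libraries, each point a library, on the log2(deposited value + 1) scale, with a line of equal values. Both genes are at 20 or more in the 20 libraries of 5 animals and at 3.01 or below in the 16 libraries of the other 4.

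The genes ENSOARG00000001834 and ENSOARG00000009497, which did not meet the rule, came next in likeness to this pair, with correlations of 0.89 and 0.87 over the 24 libraries. Among the other 10 genes the closest gene in the whole table reached 0.741 to 0.902. Some of these closest genes were hardly read. Those of ENSOARG00000019479, ENSOARG00000000689 and ENSOARG00000004851 had a median of 0 over the 24 libraries and at most 2.17, 4.91 and 1.25. Those of ENSOARG00000002193, ENSOARG00000002980 and ENSOARG00000012071 were at 44.0 or more in all 24. For ENSOARG00000009308 the closest gene was ENSOARG00000016936, at 0.878, with a median of 0 and at most 24.4. Among all 66 pairs of the 12 genes the correlation ran from −0.68 to 0.997 with a median of 0.10. These genes were looked up after the values were seen.

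ENSOARG00000019479 was on in 2 animals, CONTROL 2902 with 85.4, 129, 53.1 and 56.5 and N22W 2915 with 106, 79.0, 48.7 and 54.2 at PRE, TR, END and END-CC. All 3 N6W animals had 0 reads in all 12 of their libraries, among 228223404. Animal 2914 was in between, with 9.40 and 16.5 at PRE and TR and 1.28 and 2.46 at END and END-CC, and the other 3 animals of CONTROL and N22W stayed at 3.62 or below. The on animals lay above every library of the others.

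ENSOARG00000001393 showed more than 2 levels. It was on in 2913 with 33.7, 25.9, 40.8 and 23.1 and off in 2907, with 0 reads in 4 libraries. Animals 2901, 2902 and 2915 lay between 12.3 and 32.1, overlapping with 2913, and 2903, 2914, 2908 and 2909 lay between 0 and 4.91. The on limit of 20 therefore cuts through a group of 4 animals for this gene.

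ENSOARG00000004851 was on in 1 animal, 2901, with values of 22.9, 72.1, 77.3 and 90.4 at PRE, TR, END and END-CC. It was off in 2903, 2913 and 2907. Animal 2915 came next, with 9.04, 21.4, 6.81 and 4.44, and no other animal exceeded 7.33. It is the only gene of the 12 that passed the test of release below.

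For the other 6 genes the 12 libraries that stood apart matter to the states. For ENSOARG00000000689, ENSOARG00000002193, ENSOARG00000002980, ENSOARG00000008077, ENSOARG00000009308 and ENSOARG00000012071 each PRE and TR library of all 6 CONTROL and N22W animals was at 20 or more, whatever the same animal showed later. Off animals could for these genes be found in N6W alone. In 16 combinations of gene and animal among them the value was at least 64.6 in both PRE and TR libraries and at most 1 at END and END-CC. Whether the earlier and later values of these genes count the same transcript was not tested.

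Within the END and END-CC libraries, which belong to the 24, these genes too parted the animals. ENSOARG00000002980 was on at END and END-CC in 1 animal of each arm, with 103 and 109 in 2903, 40.8 and 37.2 in 2913 and 30.1 and 38.4 in 2908. It had 0 reads on both sides in all 6 other animals. N6W animal 2908 was on from the start, with 44.4 at PRE and 49.9 at TR, while 2907 and 2909 had 0 reads in 8 libraries, among 158295796. At PRE and TR the CONTROL and N22W animals without a read at the end had 64.6 to 109, overlapping with the 90.9 to 225 of 2903 and 2913.

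ENSOARG00000008077 was at 65.9 to 98.7 at END and END-CC in the 3 CONTROL animals and 2913, and at 0 to 0.524 in 2914 and 2915. In the PRE and TR libraries the first 4 animals had 852 to 1426 and the last 2 had 84.4 to 106. The animals with 0 or 1 read at the end were thus the low animals earlier, with no overlap between both sets, although their earlier values were above the on limit. In N6W, animal 2908 had 61.3, 74.1, 56.1 and 82.9 and was on, and 2907 and 2909 had 1 and 0 reads in 4 libraries each.

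ENSOARG00000009308 was on in 2913 alone, with 899, 728, 45.7 and 38.5 at PRE, TR, END and END-CC. The other 5 CONTROL and N22W animals had 298 to 678 at PRE and TR and 0 to 3.25 at END and END-CC, below 2913 on both occasions. Animal 2909 had 0 reads, 2908 had 1 and 2907 had 8 over its 4 libraries. ENSOARG00000016936, the gene most like it, was on in 2913 alone as well when the limits were applied to the 24 libraries, with 7 animals off and 1 in between.

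For ENSOARG00000000689, ENSOARG00000002193 and ENSOARG00000012071 the earlier libraries of CONTROL and N22W did not part the animals as the later ones did. ENSOARG00000000689 had 28.2 and 33.1 at END and END-CC in 2902 and at most 2.64 in the other 5 animals, whose PRE and TR values of 117 to 212 overlapped with 236 and 146 in 2902. ENSOARG00000002193 had 34.6 and 33.6 in 2914 and 32.0 and 42.6 in 2915, against at most 0.951 in the other 4 animals, with overlapping values of 135 to 231 at PRE and TR. ENSOARG00000012071 was on in 2903 alone, with 315, 246, 22.4 and 22.2 at PRE, TR, END and END-CC. At END and END-CC 2901, 2902 and 2913 were in between with 11.9 to 29.5, which overlapped with 2903. Animals 2914 and 2915 had 0 to 0.524 there, and N6W animals 2907 and 2908 had 4.95 to 24.3 over their 4 libraries. Animal 2909 had 1 read of it in 4 libraries.

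**Figure D3:**
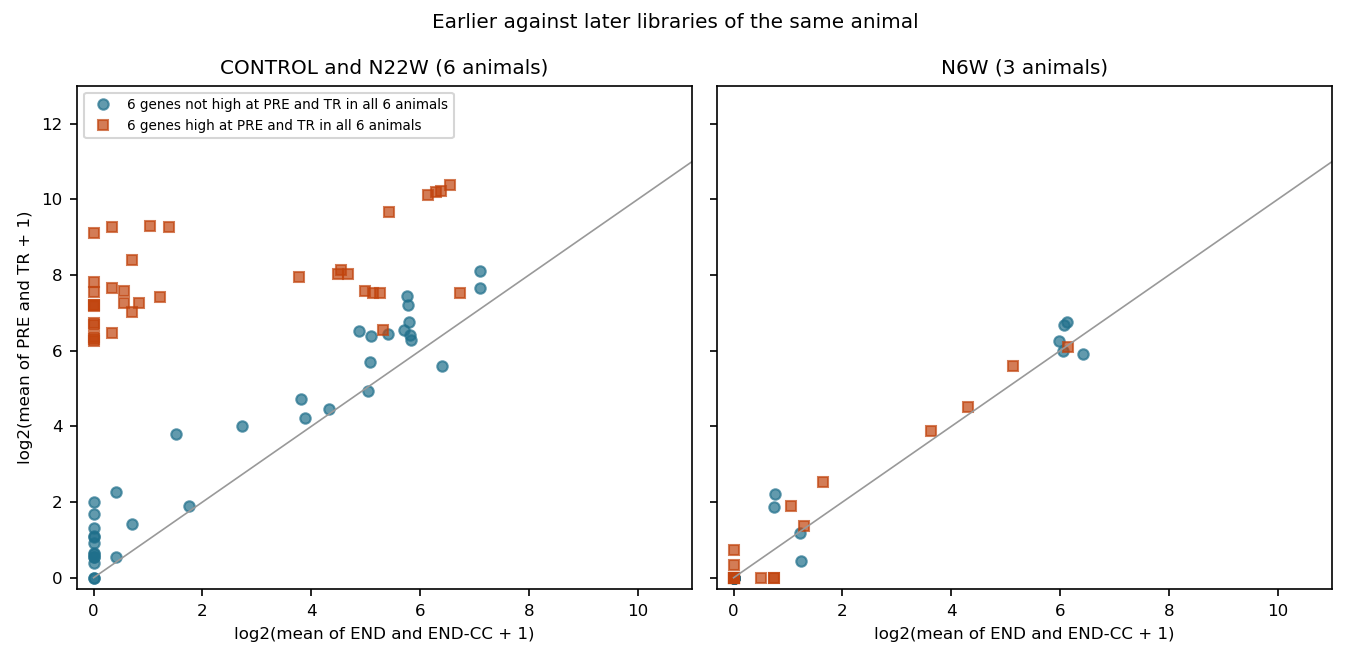
Mean of the PRE and TR values against the mean of the END and END-CC values of the same animal, on the log2(mean + 1) scale, each point 1 gene in 1 animal, with a line of equal values. In CONTROL and N22W the 6 genes high at PRE and TR in all 6 animals lie above the line, ENSOARG00000002980 in 2903 and 2913 the nearest to it among on animals (log2 differences of 0.75 and 1.23), while in N6W both sets of genes lie near it.

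For animals that were on, the log2 difference between the PRE and TR and the END and END-CC libraries differed between both sets of genes in its median, with overlapping ranges. In CONTROL and N22W the 6 genes high at PRE and TR in all 6 animals had 0.75 to 4.24 over 11 combinations (median 3.58). The other 6 genes had −1.02 to 1.73 over 14 (median 0.87), beside the shift of 0.49 of the 9947 genes. In N6W it ran from −0.02 to 0.46 in 2 combinations and from −0.49 to 0.71 in 5. The 12 genes were on by the rule in these animals, and both sets were split by PRE and TR values of CONTROL and N22W. That split favours a higher median in the first set, so the values are a description.

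No animal was on for a gene in one muscle and off in the other at the end. Of the 108 combinations 32 were at 20 or more at both END and END-CC, all of them on states that the rule had asked for in all 4 libraries, so this count is a description. In 49 combinations both muscles were off, and 0 were on in one and off in the other. The remaining 27 had a value between 1 and 20 on at least 1 side. Over all genes that the rule admits, 69 combinations of 226404 were on at END and off at END-CC and 5 were the other way round. Where both sides were on, the absolute log2 difference between them had a median of 0.24 for the 12 genes (32 combinations, highest 0.91) and of 0.27 for all genes (98553 combinations). Where both muscles were on, they were therefore close to each other in level, with a median difference below that of all such genes, which was not tested.

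**Figure D4:**
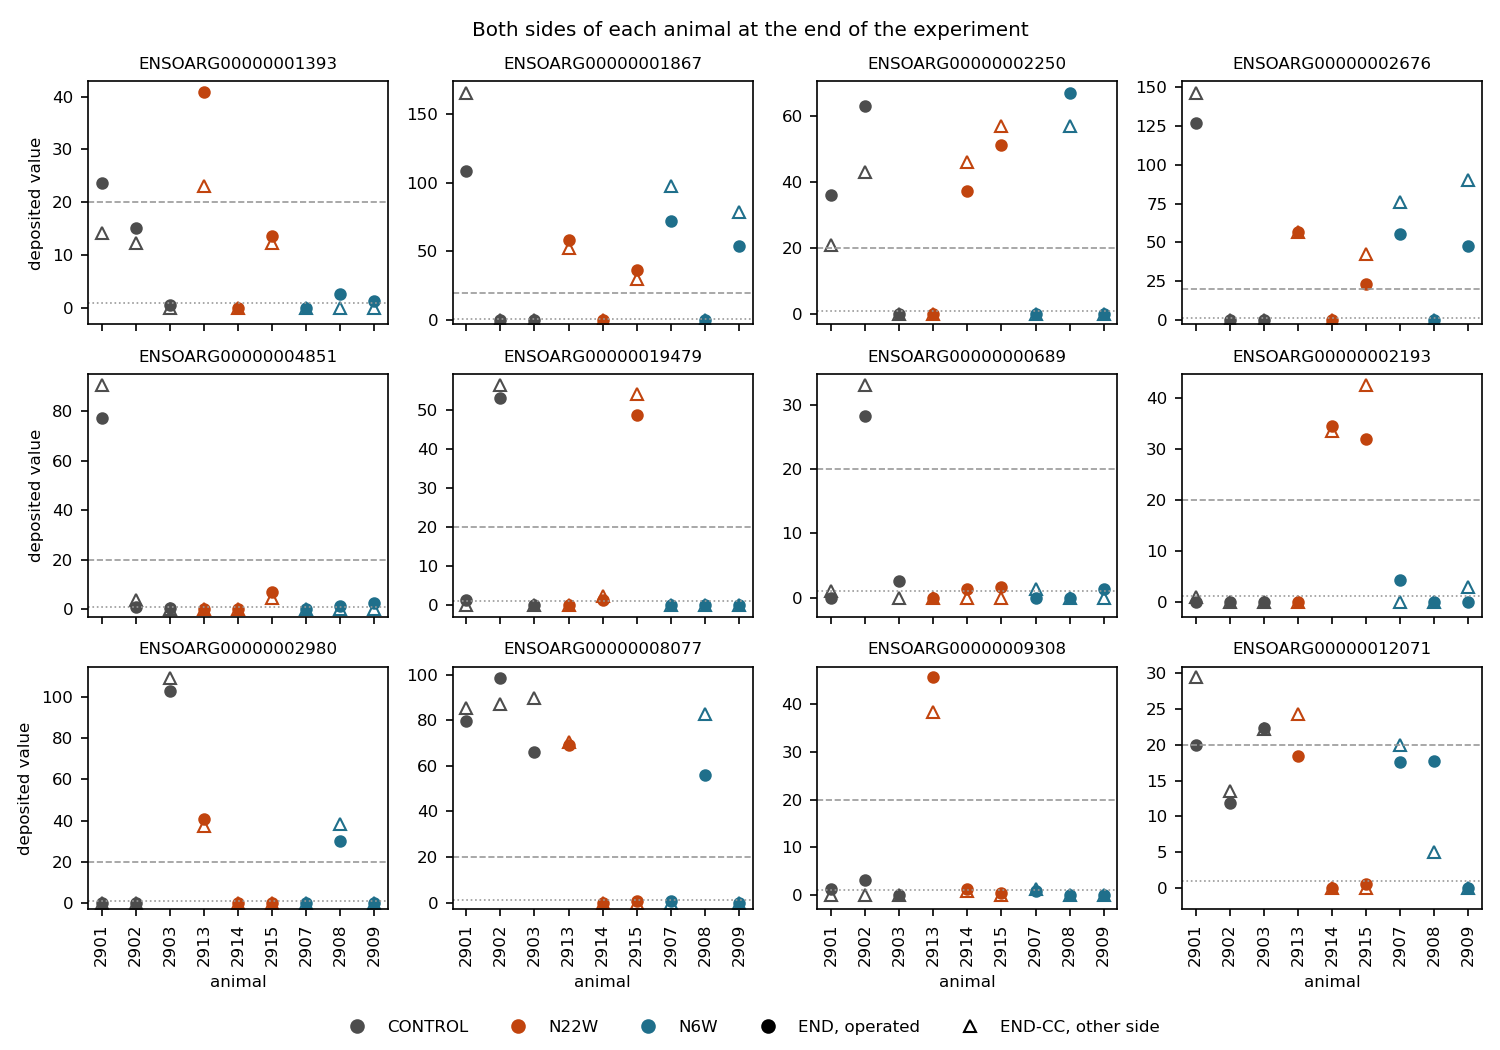
Deposited values of the 12 genes at the end of the experiment in the operated muscle (filled circles) and the muscle of the other side (open triangles) of each of the 9 animals, with broken lines at the limits of 20 and 1. Both symbols of an animal lie on the same side of the gap between the limits, apart from values that fall between them.

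Animals of 1 arm often had opposite states. At END and END-CC 11 of the 12 genes had at least 1 on and 1 off animal within the same arm, the exception being ENSOARG00000012071. All 3 animals of an arm shared a state, on or off, in 1 arm each for ENSOARG00000002193 (CONTROL, off), ENSOARG00000008077 (CONTROL, on) and ENSOARG00000019479 (N6W, off). Animals of the same arm had opposite states in 0 to 7 genes (mean 4 over 9 pairs) and animals of different arms in 1 to 8 (mean 3.67 over 27 pairs). Animals 2907 and 2909 differed in 0 genes and shared a state in 6, and 2903 and 2915 differed in 8 and shared 1. Because the rule set animals against each other, no difference between arms was tested.

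Switches from on to off or back were rare over all genes, and the 12 genes showed none inside either set of libraries. From PRE to TR, 58 of the 108 combinations were on in both libraries, 26 were off in both, and 0 went from on to off or from off to on, beside 18 and 72 of 226404 over all genes. From TR to END in N6W, inside the 24 libraries, 7 of 36 combinations were on in both, 20 off in both, and 0 switched, beside 2 and 3 of 75468 over all genes. The same step in CONTROL and N22W, which leads from the libraries that stood apart to the others, took 16 of 72 combinations from on to off and 0 from off to on, beside 2137 and 3 of 150936 over all genes. Counts of 0 are thus no result about the 12 genes. The rule asks for an equal state in all 4 libraries of at least a pair of animals per gene, which favours stability in those animals and leaves the others free.

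Stability was also read in libraries that had not served for the choice. With the limits applied to END and END-CC alone, 28 genes were chosen, the 12 and 16 more. In N6W, of 30 off states 23 were off and 0 on at PRE and TR. Of 20 on states 17 were on and 0 off, so that 40 of 50 held (80.0%). The same share over all genes is not given, here or for the other arms, so the shares held are a description. Over all genes 2 and 3 of 75468 N6W combinations switched from TR to END, so the counts of 0 are no result about the chosen genes. In CONTROL 28 of 29 on states held and 0 turned off, while 8 of 29 off states held and 10 were on at PRE and TR (36 of 58 held, 62.1%). In N22W 27 of 30 on states held and 0 turned off, while 6 of 29 off states held and 12 were on (33 of 59 held, 55.9%). States that did not hold in these arms were thus off states for the most part. Over all genes, 3 of 150936 CONTROL and N22W combinations went from off at TR to on at END, and 2137 from on to off. The counts of 0 in these arms are thus no result about the chosen genes either. Choosing in the opposite direction, at PRE and TR, gave 440 genes, most of them through the 12 libraries that stood apart. Of their states 918 of 3393 (27.1%) held at END and END-CC, a share that pools unlike arms. The share was 22 of 1190 (1.85%) in CONTROL and 23 of 1163 (1.98%) in N22W. In N6W it was 873 of 1040 (83.9%), of which 1031 were off states and 9 on states. No N6W library was among the 12 that stood apart, at PRE and TR or later. Genes chosen because they were high in those 12 could thus be off in N6W throughout. The N6W share is therefore no result about the stability of an animal's state.

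The rule used levels and set no direction between the libraries of an animal, but it limits the changes of on and off animals. Changes within animals were tested with limma on log2(value + 1) over 14459 genes with a value of at least 10 in at least 4 libraries. All 12 genes passed that filter, by the rule itself. Off animals add changes of 0 or changes that rest on a single read. Such a read gave a log2 change of 0.93 from PRE to TR in 2903 for ENSOARG00000001867. A mean change of a gene is therefore not that of its on animals, and can lie nearer to 0 or farther from it. Without drug, from PRE to TR in CONTROL and N6W, 1 of the 12 genes passed the threshold (false discovery rate 0.05), against 27.3% of all genes tested, and it was higher at TR, against 11.5% of all genes (15.9% were lower). Their log2 fold changes had a median of 0.04, and those of all genes one of −0.02.

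That gene was ENSOARG00000004851. In 2901 it went from 22.9 to 72.1, in 2902 from 0 to 5.51, in 2903 from 0 to 0.906, in 2908 from 0 to 7.33 and in 2909 from 0 to 2.56, and in 2907 it had 0 reads at both times. It rose in 5 of 6 untreated animals, with a log2 fold change of 1.69 (SE 0.38, limma, adjusted p = 0.0029). Few reads carry this rise outside 2901, which went from 21 to 87 reads. At TR 2902, 2903, 2908 and 2909 had 7, 1, 10 and 5 reads, after 0 at PRE. The TR libraries of 2908 and 2909 were also deeper, with 24465188 and 31396433 reads against 14435065 and 11879736 at PRE. The arms gave 1.75 in CONTROL (SE 0.54, adjusted p = 0.0364) and 1.63 in N6W (SE 0.54, adjusted p = 0.0615). Without the animal as a block the call was lost (limma, adjusted p = 0.308). No contralateral biopsy was taken at TR, so release and the passing of 16 weeks cannot be told apart.

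Under nandrolone the change of the same gene was 0.71 (log2, SE 0.54, limma, adjusted p = 0.377), from 9.04 to 21.4 in 2915, from 1.17 to 3.30 in 2914 and with 0 reads at both times in 2913. Its change did not pass a test of the difference between N22W and the untreated arms (−0.97, SE 0.66, limma, adjusted p = 0.716). At END and END-CC animal 2901 stayed high on both sides, with 77.3 and 90.4. Across the 9 animals the operated side was not called apart from the other (log2 fold change 0.33, SE 0.31, limma, adjusted p = 0.411).

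In N22W 0 of the 12 genes passed from PRE to TR, against 19.8% of all genes tested (5.73% higher and 14.1% lower at TR), and 1 had an unadjusted p under 0.05 in limma. edgeR on the recovered reads called 0 as well. That one was ENSOARG00000002676, at 118 and 36.7 in 2913, 58.8 and 44.2 in 2915 and 1.17 and 0 in 2914 (log2 fold change −1.06, SE 0.40, adjusted p = 0.0671). It passed without CONTROL animal 2902 (adjusted p = 0.0254) or 2903 (adjusted p = 0.0323), each with the same fold change, and not without N22W animal 2913 (−0.76, adjusted p = 0.432) or 2914 (adjusted p = 0.177). ENSOARG00000001867, so like it over the 24 libraries, went from 111 to 58.4 in 2913, from 87.0 to 80.3 in 2915 and from 0 to 1.10, a single read, in 2914. Its log2 fold change was 0.02 (SE 0.34, adjusted p = 0.98) in the same limma fit. By animal its log2 changes were −0.91 in 2913, −0.11 in 2915 and 1.07 in 2914. Those of ENSOARG00000002676 were −1.66, −0.40 and −1.12 in the same order. Both genes were thus lower at TR in both on animals, and each change in 2914 rests on a single read. No difference between the pair was tested.

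Between the operated and the other side at the end, over all 9 animals, 0 of the 12 genes passed, against 43.6% of all genes tested (22% higher and 21.6% lower on the operated side). Again 1 had an unadjusted p under 0.05 in limma, and edgeR called 0. For ENSOARG00000001393 the fold change was 0.64 on the log2 scale (SE 0.28, limma, adjusted p = 0.069), with 40.8 against 23.1 in its on animal 2913. It passed without N6W animal 2907 (0.81, adjusted p = 0.0392), in which it had 0 reads. Its log2 differences of 1.90 in 2908, 1.22 in 2909 and 0.73 in 2903 rest on 2, 2 and 1 reads at END against 0 at END-CC. The differences in 2901, 2902, 2913 and 2915 were 0.69, 0.29, 0.79 and 0.12, and no animal was lower at END. Log2 fold changes of the 12 genes ran from −0.27 to 0.64 with a median of 0.09, beside a median of 0.02 over all genes.

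The change over release differed between N22W and the untreated arms in 0 of the 12 genes, against 0.0553% of all genes tested (0.0207% where the change was higher in N22W, 0.0346% where it was lower). ENSOARG00000002676 alone had an unadjusted p under 0.05 in limma (difference −1.08, SE 0.49, adjusted p = 0.564), and edgeR called 0. Standard errors limit what these tests could call: they ran from 0.22 to 0.78 for release without drug, from 0.32 to 1.10 under nandrolone and from 0.18 to 0.63 between the sides (log2). The widest of each range belonged to ENSOARG00000002980. The fit had 1 residual variance per gene over all 36 libraries. Animals of an arm that differ in their step from TR to END thus widen the standard error of every comparison. For this gene that log2 step was −6.79 in 2902 and −1.12 in 2903, both CONTROL.

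**Figure D5:**
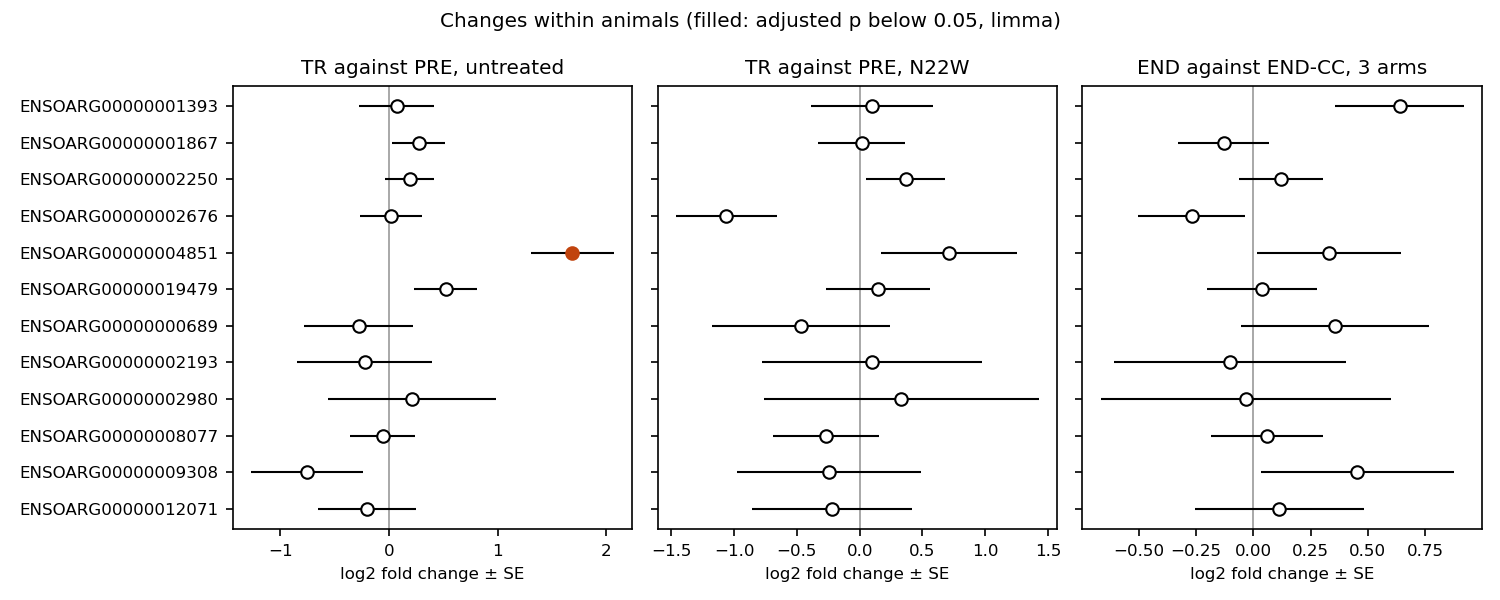
Log2 fold change within animals of the 12 genes in the 3 comparisons named over the panels, with bars of 1 standard error from limma. The filled point, ENSOARG00000004851 from PRE to TR without drug, is the 1 value past the threshold.

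Near the limits of the rule the cut was narrow. Just inside the on limit lay ENSOARG00000012071 and ENSOARG00000004851, whose lowest value in their on animal was 22.2 and 22.9. Just outside lay ENSOARG00000010990 with 19.9 and ENSOARG00000003432 with 18.6. On the off side ENSOARG00000012071 had 0.511 as the highest value of its off animal and ENSOARG00000000689, like the other 10 genes, 0. Just outside lay ENSOARG00000002874 with 1.00 (1.004 as deposited, a single read) and ENSOARG00000005838 with 1.13. With the rule applied to the 24 libraries alone 26 genes met it, the 12 and 14 more.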

How the data were processed

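Total RNA libraries of 36 biopsies (9 sheep, 4 each) were stranded and depleted of ribosomal RNA with probes for human RNA, per the labels' protocols. Per the submitters' processing notes, which give no roles, the tools were STAR 2.3.0e and R 3.0.2 and the genome build Oar_v3.1. The sources used here do not state the counting step or the way size factors were derived. The authors deposited 1 signal per gene and library. Low values (up to 100 reads) were whole multiples of 1 step per library, all of them within 0.1 of a whole number (100%), so reads were recovered by dividing by that step. Deposited copies were looked for: the chi-square per gene between libraries of 1 group was 15.3 to 157. Depth was 11879736 to 43065773 reads, limits for 0 reads were set at 3 reads, and they cover counting error only.

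The 12 genes, and the tests, were chosen with earlier results of these data known. All on and off states come from the deposited values. Changes within animals were fitted with limma 3.58.1 (trend, R 4.3.3) on log2(value + 1), in place of edgeR since values were not whole counts, with 1 mean per arm and time point and the animal as a block over all 36 libraries. P values are two-sided and adjusted by the Benjamini-Hochberg method over 14459 genes. Libraries are paired by animal number, because each animal was biopsied repeatedly per the design text. Deviations from group means correlated with a mean r of 0.24 within and −0.12 between animals. Alternatives used edgeR 4.0.16 and DESeq2 1.42.0 on recovered reads, other pseudocounts, filters and limits, and left out each animal. The limma and edgeR fits were tried on simulated reads, for release without drug alone. Those reads held no differences between animals, so they do not cover genes that are on in some animals and off in others.

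The rule for named genes took the highest genes by level where on, by number of on animals and by pattern, those past a test, those nearest the limits and those of largest and smallest range, and with 12 members all are named. No pattern over the 9 animals was shared, so that part of the rule named none. Marker and pathway lists needed gene names and were not used. Levels are not compared between genes, since lengths are not given here.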

Additional observations from a re-analysis of the deposited data

How the results depend on the processing

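The number of genes meeting the rule was 12. It was 11 with an off limit of 0.5 and 12 with all libraries scaled to the same total (11 of them shared), and 9 to 12 with 1 animal left out. It was 19 with an off limit of 2, 25 and 6 with an on limit of 10 and 50, 28 when 3 of 4 libraries were enough, 440 with the PRE and TR libraries alone, 28 with the END and END-CC libraries alone, and 26 without the 12 libraries that stood apart, a setting chosen after seeing the data. The 12 were all among each of these larger sets.

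Of the states chosen on PRE and TR, 27.1% held at END and END-CC. This pools 1.85% in CONTROL, 1.98% in N22W and 83.9% in N6W. The pooled share was 24.8% with limits of 0.5 and 50, and 65.3% when chosen on END and END-CC and read at PRE and TR. Of the latter states in N6W alone 80.0% held, a setting chosen after seeing the data. The cause was not tested.

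The 1 gene called for release without drug, ENSOARG00000004851, was called under 17 of 18 alternatives, with log2 fold changes of 0.78 to 3.43. Without the replicate block 0 genes were called (adjusted p = 0.308), and pairing changed no other call. With 1 animal left out the count was 1 to 1, and its log2 fold change 1.33 to 2.10. Under nandrolone the count of 0 became 1 with a pseudocount of 5 (ENSOARG00000002676, −0.75, adjusted p = 0.0395) and was 0 to 1 with 1 animal left out. Between the sides it became 1 with only the libraries compared (ENSOARG00000001393, adjusted p = 0.0304) and was 0 to 1 with 1 animal left out. The difference in release stayed at 0 under all 18 alternatives. Off states rest on 0 or 1 read per library, and 0 reads allow up to 3, so a low level could not be told from none.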
